A study of Rattus norvegicus with 8 samples.

Results

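Endothelial and vascular growth genes were followed in the pituitary of nursing rats. They are 10 genes, 9 of them classical markers of blood vessel endothelium (Pecam1, Cdh5, Kdr, Flt1, Tek, Tie1, Plvap, Vwf, Emcn) and 1 a growth factor that acts on endothelium (Vegfa). Their members were every non-control probe whose gene name in the array files equals 1 of these symbols, which gave 15 probes, 1 spot each, among 30367 probes for 26257 gene names. The 4 TCDD samples came from Wistar dams exposed to TCDD, a dioxin that activates the aryl hydrocarbon receptor (AhR), and the 4 control samples from Wistar dams given as control. All 8 samples were pituitaries taken while the dams were lactating, on postpartum day 7, and each was hybridised to 1 single-colour Agilent rat array. The labels used here give no dose and no day of exposure. The design text counts 4 dams a group and says nothing of pooled tissue, so the tests below weigh differences against the spread among these 4 samples.

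Endothelial cells line the blood vessels and hold together through junction proteins. Vegfa is a secreted ligand that binds the tyrosine kinase receptors Kdr and Flt1 on these cells, while angiopoietins bind the receptor Tek, of which Tie1 is a close relative and partner. The anterior pituitary is supplied by portal vessels, and its capillaries are fenestrated: small pores in the cell, closed by diaphragms made of Plvap, let hormones pass into blood. TCDD reaches genes through AhR, which with its partner Arnt binds the core letters GCGTG in DNA.

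Vegfa had 4 probes and Vwf 3, and the other 8 genes had 1 each. The array files place 14 of the 15 probes on the rn4 build; that of Kdr, from base 5792 of its transcript, is listed there as unmapped. All probes were designed on mRNA, so they lie in exons of their transcripts. Which exon each falls in was not determined. The sequences below are those of 2 Vegfa probes in protein-coding sequence and of 3 receptor probes, because these are the stretches of mRNA that the Vegfa comparison and the undetected receptors rest on. They are given 5′ to 3′ in lower case and named by gene and by the first base in the transcript they were designed on.
Vegfa 1342: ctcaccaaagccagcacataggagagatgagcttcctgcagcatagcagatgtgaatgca
Vegfa 1576: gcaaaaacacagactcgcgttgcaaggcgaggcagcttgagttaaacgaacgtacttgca
Flt1 2054: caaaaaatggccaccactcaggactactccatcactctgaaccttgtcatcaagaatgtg
Tek 3227: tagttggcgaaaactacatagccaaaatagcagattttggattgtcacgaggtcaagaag
Tie1 2791: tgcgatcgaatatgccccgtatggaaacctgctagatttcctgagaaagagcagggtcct

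Vegfa 1342 lies at chr9:10528551-10528610 (plus strand) and Vegfa 1576 at chr9:10531972-10532031 (plus). Vegfa 1342, like the Vegfa probe from base 1172, reads the receptor-binding core that all major forms of the protein share, and Vegfa 1576 the heparin-binding part that the shortest major form lacks. Another Vegfa probe, from base 3407 of the transcript, lies at chr9:10535933-10535992 (plus). Flt1 2054 lies at chr12:7957094-7957153 (plus), in the part that codes for the extracellular region. Tek 3227, at chr5:115178576-115178635 (plus), and Tie1 2791, at chr5:138950263-138950322 (minus), both read kinase-coding sequence. The probe of Pecam1 lies at chr10:96056219-96056278 (minus), that of Cdh5 at chr19:779665-779724 (minus), and that of Plvap at chr16:18668570-18668629 (minus). The probe of Emcn spans chr2:234958254-234958549 (plus), which is 296 bases for a 60-base probe, so it crosses at least 1 intron. The Vwf probes lie at chr4:161738186-161738245, chr4:161854554-161854613 and chr4:161854702-161854759 (all plus). The last of these, from base 8514, is the probe used for Vwf. Its listed place spans 58 bases for a 60-base probe, so it does not cover the whole probe. GC content of the 15 probes ran from 35.0% to 55.0%.

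On the 8 arrays the 75th percentile of processed signal ranged from 765 to 932. The share of spots flagged as well above background ranged from 71.1% to 73.9%. All TCDD arrays lay on 1 slide and all control arrays on another, scanned apart, so slide and treatment cannot be told apart in any value here. Of 6 measured AhR target genes, all 6 were higher in TCDD samples and 2, Cyp1a1 and Cyp1a2, passed the test over all genes (limma adjusted p = 0.028 and 0.029). Both calls were lost with quantile normalization (limma adjusted p = 0.062), in the deposited table (0.0503) and with the replicate number as a block (0.32). They were also lost without control replicate 1, 2 or 3 or TCDD replicate 1 or 2. Normexp, a model-based background correction, lost both calls too (limma adjusted p = 0.24 and 0.27). It was run with an offset of 50 added to every signal, which shrinks log2 changes of dim probes by construction. The log2 change of Cyp1a1 was 3.98 in the chosen setting and 1.04 with normexp. Neither gene could be tested when probes had to be well above background on all 8 arrays. With each array's 75th percentile set to 1000, control signals were 3.8 to 9.0 for Cyp1a1 and 2.7 to 3.4 for Cyp1a2. The dimmest probe still flagged as detected lay between 11.5 and 15.3 across arrays. Both genes thus entered the test only through their signal in TCDD samples, and their p are weak support. The 7 anterior lobe hormone genes, which define the labelled tissue, were detected with summed signals of 1276870 to 1651630 in TCDD samples and 1432880 to 1443660 in control samples. Signals below are scaled so that every array's 75th percentile is 1000. Levels of different probes are not set against each other, since probes differ in brightness for equal amounts of RNA. Summed signals of a list compare arrays over the same probes. They follow mostly the brightest probes and do not measure cell content.

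None of the endothelial and vascular growth genes changed with TCDD by the test used. Of 10 genes, 8 had a probe well above background on at least 4 arrays and were tested, 4 of them higher and 4 lower in TCDD samples. At an adjusted p of 0.05 (limma, Benjamini-Hochberg adjustment over 17361 genes) 0 of the 8 passed, where 0.0806% of all genes did. At an unadjusted p under 0.05 there were again 0 of 8, against 10.7% of all genes. Their log2 changes ran from -0.15 to 0.14 with a median of -0.03, beside a median of 0.02 over all genes tested, 43.6% of which were lower. In none of the 8 did the 4 TCDD values lie apart from the 4 control values, which they did in 7.1% of all genes. In whole tissue, fewer cells of a type and less RNA per cell cannot be told apart.

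**Figure D1:**
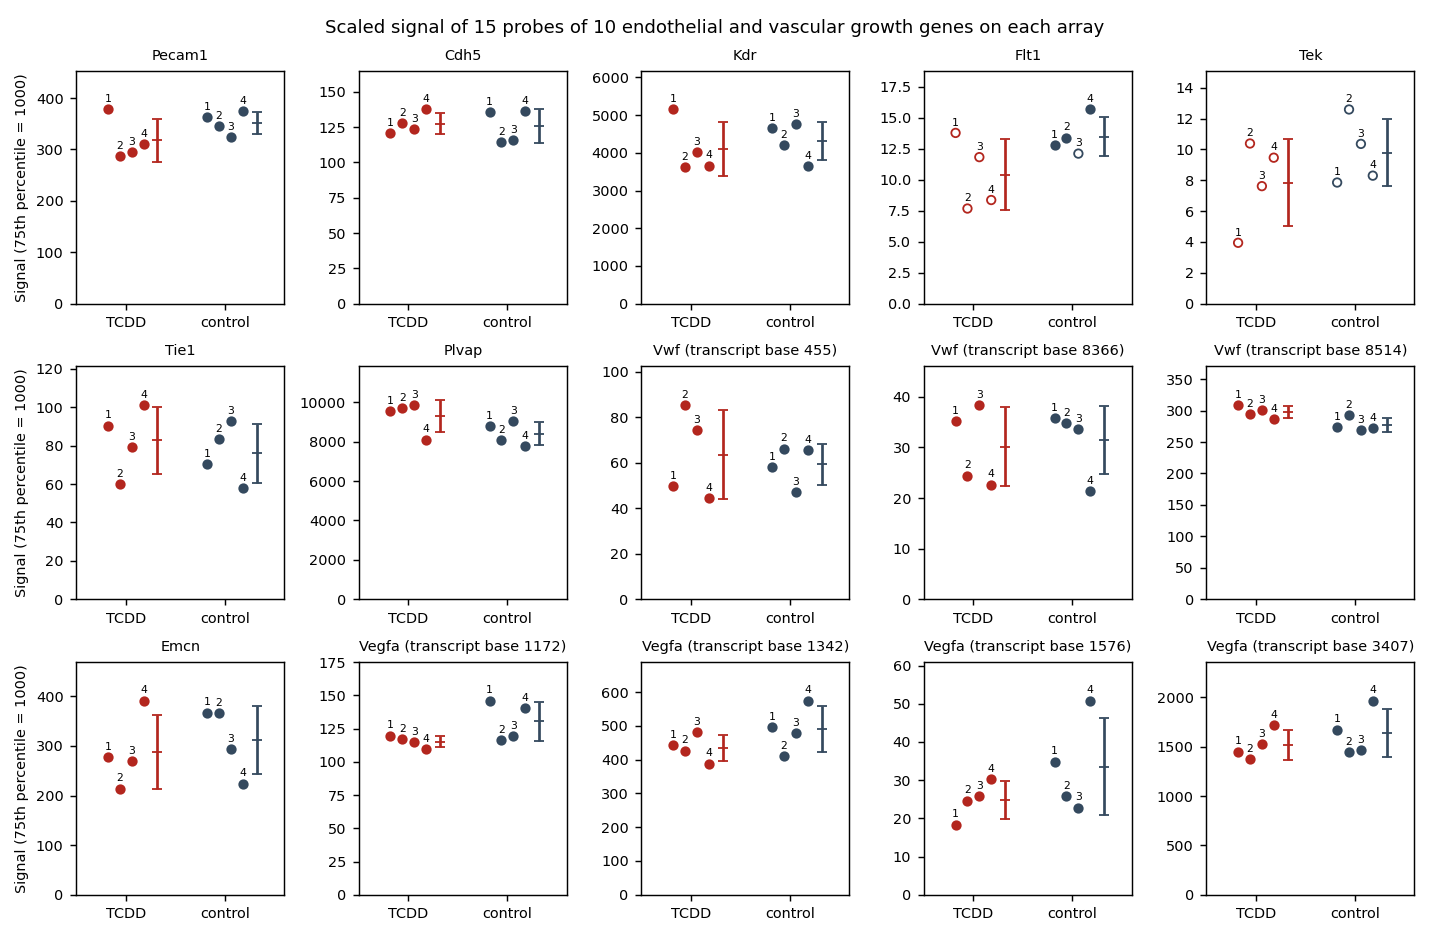
Scaled signal (array 75th percentile = 1000, linear axis from 0) of the 15 probes on the 4 TCDD arrays (red) and the 4 control arrays (dark blue), numbered by replicate, with mean and SD beside them. Open points were not well above background. The groups overlap in every panel. For Flt1, filled points occur on 3 control arrays and 0 TCDD arrays.

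The junction and surface proteins come first. Pecam1, an adhesion molecule at endothelial junctions that platelets and leukocytes carry too, had 378, 286, 296 and 311 in TCDD samples, against 363, 345, 325 and 374 in control samples. TCDD replicate 1 was the highest of all 8, and the other TCDD samples were below every control sample. The log2 change was -0.15 (SE 0.10, 95% confidence interval -0.38 to 0.07, limma adjusted p = 0.64). Without TCDD replicate 1 it was -0.24, which still did not pass (limma adjusted p = 0.44).

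Cdh5, VE-cadherin, the cadherin of endothelial adherens junctions, had 121, 128, 124 and 138 in TCDD samples and 135, 114, 116 and 137 in control samples. The groups covered nearly the same range. Its log2 change of 0.02 (SE 0.08, interval -0.17 to 0.22, limma adjusted p = 0.95) took a negative sign with quantile normalization, with normexp, with median centring and in the deposited table, so no direction is given.

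Emcn, endomucin, a sialomucin on capillary and venous endothelium, had 278, 214, 269 and 391.6 in TCDD samples and 367, 365, 293 and 224 in control samples. Both the highest and the lowest of the 8 values were in TCDD samples. The log2 change was -0.12 (SE 0.22, interval -0.62 to 0.38, limma adjusted p = 0.89). This is the widest interval among the 8 genes, and it reaches from 0.65 to 1.30 of the control level. Without TCDD replicate 2 the log2 change was 0.0084, so its direction rests on that array.

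Plvap, the protein of the diaphragms that close fenestrae, had 9550, 9694, 9858 and 8097 in TCDD samples and 8788, 8058, 9038 and 7753 in control samples. Of the TCDD samples 3 were above every control sample, and replicate 4 was among the control values. The log2 change was 0.14 (SE 0.09, interval -0.05 to 0.34, limma adjusted p = 0.62), and the exact two-sided permutation p was 0.14, where 0.029 is the smallest that 4 against 4 samples allow. Without TCDD replicate 4 the log2 change was 0.21, which did not pass (limma adjusted p = 0.46).

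Among the receptors for Vegfa, Kdr (VEGFR2), the main signalling receptor, had 5150, 3612, 4021 and 3663 in TCDD samples and 4655, 4203, 4765 and 3641 in control samples. TCDD replicate 1 was the highest and TCDD replicate 2 the lowest of the 8, so the control values lay wholly within the TCDD range. The log2 change was -0.08 (SE 0.14, interval -0.39 to 0.23, limma adjusted p = 0.89). It was -0.19 without TCDD replicate 1 and -0.16 without control replicate 4, and between -0.038 and -0.020 without TCDD replicate 2 or 4 or control replicate 1 or 3.

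Flt1 (VEGFR1), which binds Vegfa tightly and in part keeps it from Kdr, was at the edge of detection. Its probe had 13.8, 7.7, 11.8 and 8.4 in TCDD samples and 12.8, 13.4, 12.1 and 15.7 in control samples. It was well above background on 0 of 4 TCDD arrays and 3 of 4 control arrays, with TCDD replicate 1 nonetheless above 3 of the control values. With 3 arrays it missed the minimum of 4 and was not tested. Across arrays, the dimmest probe still flagged as detected lay between 11.5 and 15.3. Set against that limit, the control mean was at least 1.00-fold that of TCDD samples, so these data put no fold on Flt1.

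Tek (Tie2), the angiopoietin receptor, was not well above background on any of the 8 arrays. Its probe had 3.9, 10.4, 7.6 and 9.5 in TCDD samples and 7.9, 12.6, 10.4 and 8.3 in control samples, below or near the same limit. No level or fold of Tek can be read from this probe, and no other Tek probe carries the gene name.

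Tie1, the partner of Tek, was measured on all 8 arrays. It had 90.5, 60.0, 79.3 and 101 in TCDD samples and 70.2, 83.6, 92.8 and 57.8 in control samples. The highest value was in a TCDD sample and the lowest in a control sample, with the others interleaved. The log2 change was 0.12 (SE 0.20, interval -0.33 to 0.57, limma adjusted p = 0.89). Without control replicate 4, the lowest array, it was -0.0072, and with normexp it was 0.035.

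Vwf, von Willebrand factor, captures platelets at sites of vessel damage and is made by endothelium and megakaryocytes. Its brightest probe, from base 8514, had 309, 295, 301 and 286 in TCDD samples and 274, 293, 270 and 273 in control samples. The TCDD samples were above the control samples apart from control replicate 2, which was above TCDD replicate 4. The log2 change of 0.10 (SE 0.06, interval -0.03 to 0.23) had the smallest p of the 8 genes and did not pass (limma adjusted p = 0.57; log2 change 0.057 with normexp). The exact two-sided permutation p was 0.057.

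The other Vwf probes did not show the same order. The probe from base 455 had 49.9, 85.4, 74.4 and 44.5 in TCDD samples and 57.9, 66.3, 47.2 and 65.5 in control samples. That from base 8366 had 35.2, 24.4, 38.4 and 22.7 in TCDD samples and 35.9, 34.7, 33.7 and 21.4 in control samples. Both had the groups wholly mixed, with log2 changes of 0.06 (SE 0.22) at base 455 and -0.07 (SE 0.23) at base 8366. The base 8366 and base 8514 probes are close neighbours near the end of the transcript.

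Vegfa, a ligand that many cell types secrete, was lower on average in TCDD samples by all 4 of its probes, and none of the 4 differences passed. The brightest probe, from base 3407, had 1452, 1372, 1523 and 1720 in TCDD samples and 1674, 1444, 1469 and 1969 in control samples. Control replicate 4 was the highest and TCDD replicate 2 the lowest. The log2 change was -0.11 (SE 0.12, interval -0.37 to 0.16, limma adjusted p = 0.81).

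The Vegfa probe from base 1172 had 120, 117, 115 and 110 in TCDD samples, against 146, 116, 119 and 140 in control samples. Control replicates 1 and 4 stood above the rest, and the other 6 samples lay between 110 and 120. Its log2 change of -0.17 (SE 0.09, interval -0.38 to 0.03, limma adjusted p = 0.56 over 19950 probes) had the smallest p of the 13 tested probes.

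Vegfa 1342 had 443, 427, 483 and 388 in TCDD samples and 497, 411, 479 and 575 in control samples, with a log2 change of -0.17 (SE 0.11). Vegfa 1576 had 18.4, 24.6, 25.7 and 30.4 in TCDD samples and 34.8, 25.8, 22.8 and 50.8 in control samples, with a log2 change of -0.39 (SE 0.26, interval -0.99 to 0.21; -0.15 with normexp). In both, the highest value was that of control replicate 4. The 4 probes share the RNA of the same samples and are no independent replicates.

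A shift between forms of Vegfa would move the probe of the heparin-binding part against the others. Within each array the log2 signal of the base 1172 probe minus that of Vegfa 1576 averaged 2.24 in TCDD samples and 2.02 in control samples, a difference of 0.22 (exact two-sided permutation p = 0.49). For Vegfa 1342 minus Vegfa 1576 the averages were 4.15 in TCDD samples and 3.93 in control samples (difference 0.22, exact two-sided permutation p = 0.43). Over all 6 pairs of Vegfa probes the smallest exact two-sided permutation p was 0.23, unadjusted.

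Without control replicate 4 the log2 change of the brightest Vegfa probe was -0.01, and those of the other probes were -0.14 (base 1172), -0.09 (base 1342) and -0.17 (base 1576). The mean of the 4 probes over all arrays gave -0.21. Control replicate 4 was also the lowest of the control arrays for Kdr, Tie1, Plvap, Emcn and the base 8366 probe of Vwf, and among control arrays it had the highest erythrocyte and the lowest posterior lobe markers. The part of these in the values was not tested.

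**Figure D2:**
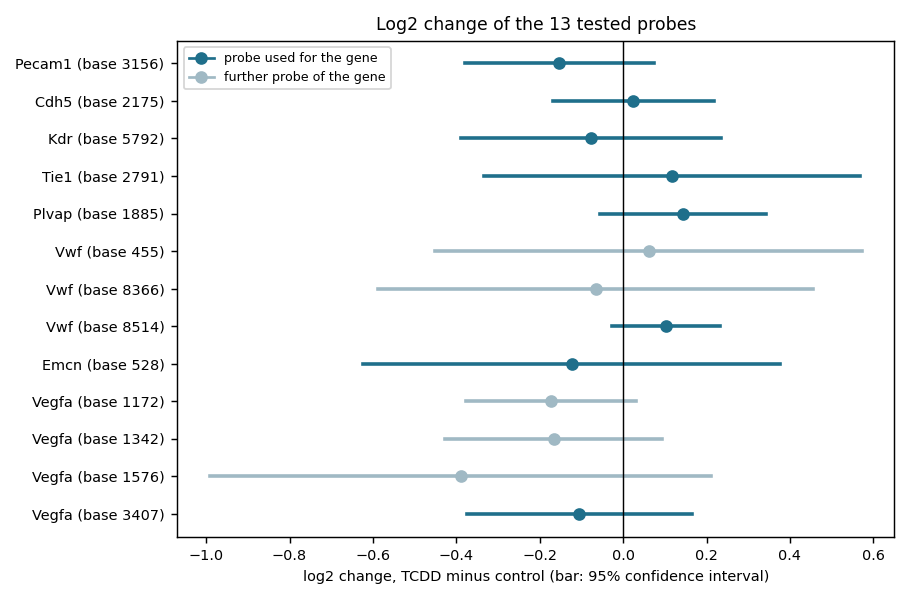
Log2 change, TCDD minus control, of the 13 tested probes with 95% confidence intervals, from the fit over all probes. Dark marks are the probe used for the gene and pale marks its further probes. Every interval includes 0, and the 4 Vegfa probes all lie below it.

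At the probe level 0 of 13 passed (limma, adjusted over 19950 probes), where 0.0451% of all probes did, and 0 had an unadjusted p under 0.05, against 10.4% of all probes. The 95% intervals of the 8 genes by the probe used for each, turned into folds, lay between 0.65 and 1.48 of the control level. For Vwf, Cdh5 and Plvap the bounds were closer, at 0.98 to 1.17, 0.89 to 1.16 and 0.96 to 1.27. The further probes of Vwf had wider log2 intervals, -0.45 to 0.57 and -0.59 to 0.46, and that of Vegfa 1576 reached -0.99. A p that misses the threshold does not show that the levels were equal.

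Probes printed on 10 spots give the noise between spots of an array, which leaves out labelling, hybridisation and differences between arrays. Among the 50 such probes nearest in brightness, the median SD of log2 signal between spots of 1 array was 0.05 for the level of Kdr, 0.07 for that of Emcn and 0.11 for that of Tie1. Between samples of a group the SD was 0.21 for Kdr, 0.35 for Emcn and 0.31 for Tie1, which were the 3 highest ratios among the probes used for the 8 genes apart from Vegfa. For Cdh5 the SDs were closer, at 0.11 between samples and 0.09 between spots, and for the base 8514 probe of Vwf they were 0.05 and 0.07. At the brightness of Tek the SD between spots alone was 0.48.

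Correlations among the endothelial genes across the 8 arrays had both signs. Over the 21 pairs of the 7 tested endothelial genes, Pearson's r across the 8 arrays had a median of 0.03 and ran from -0.52 to 0.67, with 10 pairs below 0. For Cdh5 and the base 8514 probe of Vwf the spread between samples was near or below that between spots. Such noise lowers r, so a low r need not mean that genes moved apart. With Vegfa, r ran from -0.69 (Plvap) to 0.75 (Cdh5). These are descriptions over arrays that share 2 slides. Tie1 and Emcn had r = 0.67, both being highest on TCDD replicate 4 and both low on TCDD replicate 2 and control replicate 4. The mean of the 7 measured endothelial markers, each centred on its own mean of 8 arrays, was 0.0025 ± 0.12 in TCDD samples and -0.0025 ± 0.10 in control samples on the log2 scale (SD, n = 4 each). Among 12468 other genes with a symbol, those most like this mean over the 8 arrays were Hspb3 (r = 0.99), Gpx6 (0.97), Zfpm1 (0.97), Tmem216 (0.96) and Acsl6 (0.96). They are the highest of many correlations over few arrays. Within groups, that is with each group's mean taken off, the endothelial mean had r = 0.85 with fibroblast markers and 0.71 with posterior lobe markers. With erythrocyte markers it was -0.85, and with the further endothelial surface and junction genes 0.79. Over the 8 arrays with group means left in, r was 0.84, 0.62, -0.52 and 0.59 in the same order. The part of these cell types in the endothelial values was not tested.

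**Figure D3:**
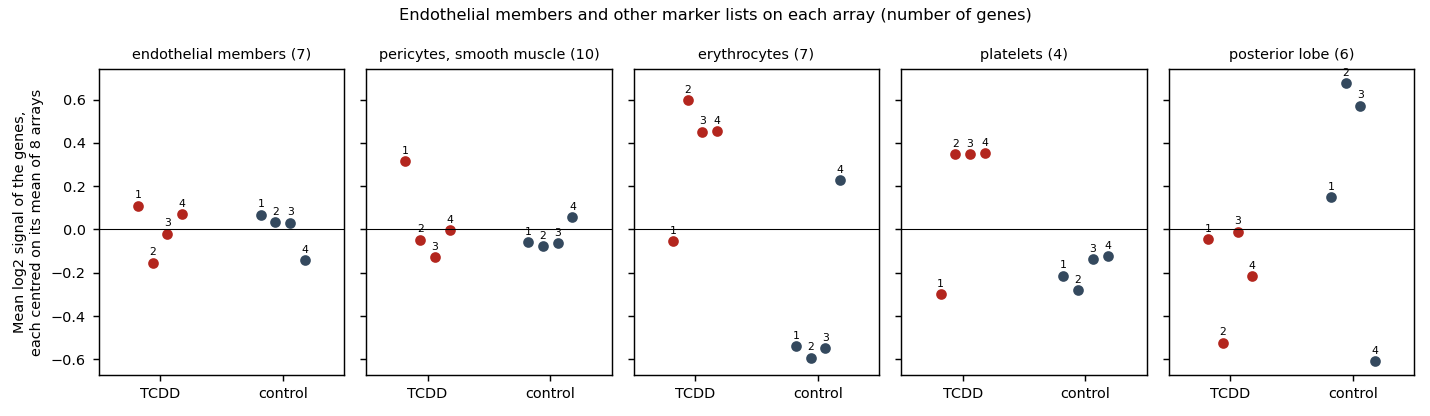
Mean log2 signal of the 7 measured endothelial markers and of 4 other marker lists on each array, each gene centred on its mean of 8 arrays, for TCDD (red) and control (dark blue) samples numbered by replicate. Endothelial markers run from -0.15 to 0.11, and erythrocyte markers from -0.59 to 0.60.

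Other cell types of vessels and blood were read from marker lists on the same arrays. Of 10 pericyte and smooth muscle markers, among them Pdgfrb, Rgs5 and Acta2, 0 passed (7 higher, 3 lower, median log2 change 0.06). Their summed signal was 2159 to 2750 in TCDD samples and 2227 to 2481 in control samples. Of 7 measured erythrocyte markers all 7 were higher in TCDD samples (median 0.53) and 0 passed, with summed signal of 438476 to 664785 in TCDD samples and 304015 to 551086 in control samples. At an unadjusted p under 0.05 (limma) there were 6 of the 7, all higher, against 10.7% of all genes. Of 4 platelet markers, among them Pf4, 4 were higher (median 0.43) and 0 passed, and their sums were 254 to 576 in TCDD samples and 270 to 325 in control samples. Epb42 of the erythrocyte list and Gp1ba and Itgb3 of the platelet list were not measured. Platelets also carry Vwf and Pecam1, and the part of blood in those values was not tested. Of 7 leukocyte markers, 2 were higher and 5 lower (median -0.08), with 0 passing. Of 7 fibroblast markers, 5 were higher and 2 lower (median 0.12), and of 6 posterior lobe markers, 2 were higher and 4 lower (median -0.22), with 0 passing in either list.

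Genes that act with the 10 were taken from 9 lists, 108 genes in all that could be tested. Of these 67 were higher and 41 lower in TCDD samples, their median log2 change was 0.05, and 0 passed in either direction (limma, smallest adjusted p = 0.24). At an unadjusted p under 0.05 there were 17, which is 15.7% of them against 10.7% of all genes, 11 higher and 6 lower. The 2 groups did not overlap in 7 of the 108 (6.48%), a share no higher than the 7.1% of all genes. These were Flt4, Mcam, Esam, Apln, Car9, Tgfb1 and Fgf1.

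Among other ligands and receptors of the VEGF family, 4 of 5 were higher and 0 passed. Flt4 (VEGFR3), the receptor of lymphatic vessels, had 133, 143, 132 and 140 in TCDD samples, against 110, 113, 125 and 122 in control samples, a log2 change of 0.22 (SE 0.07, limma adjusted p = 0.32; 0.14 with normexp). Its groups did not overlap. Nrp1, a co-receptor for Vegfa, stood at 0.34 (SE 0.15; 0.13 with normexp) and Plxnd1, a semaphorin receptor, at 0.14 (SE 0.13).

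Of 6 genes of the angiopoietin and Tie pathway 3 were higher, 3 lower and 0 passed. Angptl4, a secreted inhibitor of lipoprotein lipase, had 133, 94.4, 176 and 111 in TCDD samples and 211, 151, 194 and 275 in control samples. The groups overlapped only through TCDD replicate 3 and control replicate 2, and the log2 change of -0.70 (SE 0.23) did not pass (limma adjusted p = 0.36). Svep1 stood at -0.32 (SE 0.13; -0.070 with normexp) and Angptl1 at 0.17 (SE 0.22; 0.084 with normexp).

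Of 27 further endothelial surface and junction genes 19 were higher, 8 lower and 0 passed. Mcam (CD146), an adhesion molecule of endothelium and pericytes, had 351, 407, 374 and 315 in TCDD samples, against 214, 248, 212 and 306 in control samples, with no overlap. Its log2 change was 0.57 (SE 0.13, limma adjusted p = 0.24). Esam, an adhesion molecule of endothelial tight junctions, stood at 0.35 (SE 0.10; 0.20 with normexp) and Apln, the ligand apelin, at 0.21 (SE 0.06; 0.13 with normexp), both also without overlap and neither passing (limma adjusted p = 0.31 and 0.32).

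**Figure D4:**
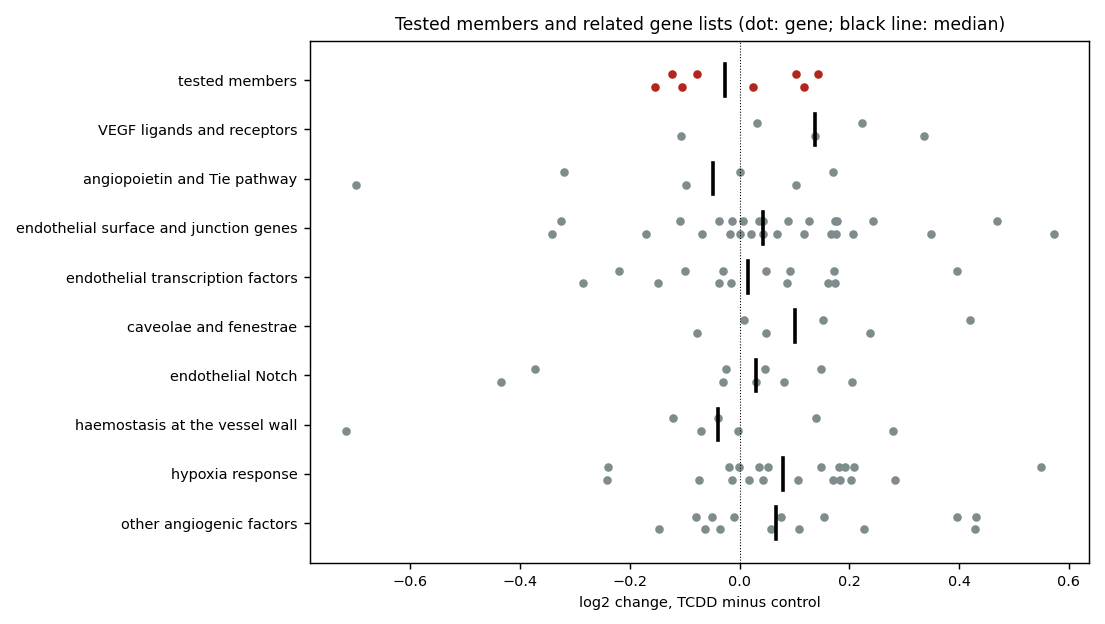
Log2 change, TCDD minus control, of each of the 8 tested members (red) and of the genes of the 9 related lists (grey), with list medians as black lines. The members lie within 0.16 of 0, and list medians run from -0.05 to 0.14.

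Endothelial transcription factors numbered 14 measured, 7 higher and 7 lower, with 0 passing. Fli1, an ETS factor, stood at 0.40 (SE 0.17; -0.014 with normexp), Klf4 at -0.22 (SE 0.10) and Epas1, a hypoxia-inducible factor, at -0.29 (SE 0.13). Of 6 caveola and membrane genes 5 were higher and 0 passed, Cav1, the main coat protein of caveolae, standing at 0.42 (SE 0.24), Ehd2 at 0.05 (SE 0.06; 0.083 with normexp) and Cd36 at 0.24 (SE 0.41; 0.014 with normexp). Of 9 Notch genes 5 were higher and 0 passed. Jag2, a Notch ligand, stood at -0.37 (SE 0.14) by one probe and at -0.34 by its other, Nrarp at 0.20 (SE 0.19) and Notch4 at 0.08 (SE 0.10).

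Of 7 genes of clotting at the vessel wall 5 were lower and 0 passed. Procr, the endothelial protein C receptor, stood at -0.72 (SE 0.30; -0.47 with normexp) and Plat, tissue plasminogen activator, at 0.14 (SE 0.08; 0.087 with normexp). Of 20 hypoxia response genes, Vegfa being a known target of that response, 14 were higher and 0 passed. Egln3, an oxygen-sensing hydroxylase, stood at 0.55 (SE 0.17), Car9 at -0.24 (SE 0.07) and Pfkfb3 at 0.18 (SE 0.07; -0.026 with normexp). Of 14 other angiogenic factors 8 were higher and 0 passed, Tgfb1 at 0.43 (SE 0.10; 0.15 with normexp), Fgf1 at 0.40 (SE 0.10) and Bmp4 at 0.43 (SE 0.25; 0.035 with normexp).

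Promoter sequence, 250 bases before to 50 after the start, was at hand for 6 of the 10 genes (RefSeq, GRCr8). The AhR core GCGTG, counted on both strands, occurred 2 times for Kdr, 1 time for Flt1 and 0 times for Tie1, Plvap, Emcn and both listed starts of Vegfa. It occurred in 29.7% of all 33469 promoters of that length. The core ACGTG of hypoxia-inducible factors occurred in none of the 6, and in 19.3% of all promoters. Sites outside this window were not searched for either core, so a count of 0 holds for the window only. The Kdr matches are shown because Kdr is the receptor with the most of them among these genes. Capitals mark the letters searched for.
Kdr, chr14:32571908-32571932 (plus strand): gggggagtggGCGTGggaaaccggg
Kdr, chr14:32571950-32571974 (plus strand): ccagcgagggGCGTGgccggacgca
A match of these letters is a description and shows no binding. The Kdr signals above did not separate the groups.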

How the data were processed

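Per the file headers, the authors' scanner software was Agilent Feature Extraction 10.7.1.1, which gave processed intensity (background-subtracted and detrended, with surrogates for dim spots), mean and background intensity, and flags, each array on its own. The deposited value table, also intensity, has 1 shared distribution over arrays and served as an alternative. Here each array was scaled to its own 75th percentile before log2, outlier spots were left out, and spots of a probe averaged. Probes well above background on 4 or more arrays were kept, and the kept probe with the highest mean stood for its gene. Names were updated through RefSeq (GRCr8): 18006 probes by accession, 2654 by symbol and 559 by an older symbol. Groups were compared with limma 3.58.1 (R 4.3.3), group as the only term, with Benjamini-Hochberg adjustment at 0.05. In simulated data with 17361 genes, 200 of them changed by 1.5- to 8-fold, 42% of 50 genes changed 1.5-fold and 76% of 50 changed 2-fold were called. There were 15 false calls. The noise was drawn for each gene on its own, without slide effects or effects shared within an array. These shares therefore need not hold for the real arrays.

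The members and the lists were chosen with earlier results of these data known. Named genes were all members and the 3 smallest p of each related list, apart from items not reported here. Same-numbered samples, which also share a slide position, did not deviate together (correlations -0.10 to -0.02). The labels used here do not say whether the numbers pair samples, and the chosen fit used no pairing. Alternatives covered background correction, normalization, filter, probe choice, outlier spots, variance model, the deposited table, the replicate block and leaving out each array.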

Additional observations from a re-analysis of the deposited data

Results flagged for a closer look

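In 2 of 32 groups of 4 arrays 1 array stood far from the other 3 by Dixon's ratio of gap to range, and chance gives about 1 in 20. For Plvap the ratio was 0.839, from TCDD replicate 4, whose 8097 lay below the 9550 to 9858 of the other TCDD samples. For the base 8366 probe of Vwf it was 0.877, from control replicate 4, whose 21.4 lay below the 33.7 to 35.9 of the other control samples. Their cause was not tested.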

How the results depend on the processing

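None of the 8 tested members passed in any of the 18 settings other than the chosen one (limma, smallest adjusted p = 0.44, for Pecam1 without TCDD replicate 1). At an unadjusted p under 0.05 (limma) there was 1 of the 8 without TCDD replicate 1, against 1631 of 17361 genes. Without TCDD replicate 4 there was also 1 of the 8, against 1692 genes. The other settings had none. The median of these 8 stayed between -0.08 and 0.02. With no filter on dim probes the median was -0.09, taken over all 10 members, Flt1 and Tek included. Of the member results, 135 kept their direction and 9 did not. In size, 3 of the 8 members moved by over 1.5 times with normexp, and 1 to 5 when 1 array was left out. Cdh5 stood at -0.075 with normexp, -0.0090 with quantile normalization, -0.014 with median centring and -0.011 in the deposited table, and between -0.019 and 0.067 when 1 array was left out. It was negative without control replicate 2 or 3 or TCDD replicate 4. Leaving out 1 array also turned Tie1 (-0.0072 to 0.26, without control replicate 4), Emcn (-0.28 to 0.0084, without TCDD replicate 2), the Vwf probes from base 8366 (-0.24 to 0.059, without control replicate 1 or TCDD replicate 2 or 4) and base 455 (-0.10 to 0.22, without control replicate 3 or TCDD replicate 2 or 3), and Cd36 (-0.15 to 0.48, without control replicate 4). Of the 27 named related genes, 15 moved by over 1.5 times with normexp, and 0 to 7 when 1 array was left out. With normexp Fli1 stood at -0.014 and Pfkfb3 at -0.026. The offset of 50 in normexp makes log2 changes of dim probes smaller by construction, here and in the values given above.

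The count over all genes, 14, was 0 with normexp (limma, 1922 at an unadjusted p under 0.05), 1 with quantile normalization, 9 with median centring, 4 with the trended robust variance, 1 in the deposited table and 0 to 11 when 1 array was left out. It was 0 without control replicate 3 (limma, 1554 at an unadjusted p under 0.05) or TCDD replicate 1 (1631). With the replicate number as a block it was 0 (limma, 1514 at an unadjusted p under 0.05), and 0 members passed. Slide as a block could not be fitted, since each group lies on 1 slide. The causes were not tested. Signal near background leaves Flt1 and Tek without a fold.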
